A study of Mus musculus with 12 samples.

Results

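Immediate early genes are the first transcripts that neurons make after synaptic activity, without the need for new protein. Calcium entry through synaptic receptors and channels activates kinases, which act on factors such as CREB and SRF that are already bound at the promoters of these genes. Their products are transcription factors of the AP-1, EGR and NR4A families, synaptic effectors such as Arc, and phosphatases and kinases that limit the signal, and in the hippocampus they are widely used as marks of recently active cells. The genes described here are 39 such transcription factors and effectors, named as a list of symbols and looked up in the total RNA table. All 39 were found among the 24736 symbols of that table, and all 39 were among the 18060 genes that passed the filter on low counts.

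RNA came from the hippocampus of male mice aged 4 months, 3 transgenic for APP/PS1, which carries APPswe and PSEN1dE9, and 3 wild-type (WT) littermates without the transgenes. The stranded total RNA libraries were replicates 1, 2 and 3 of APP/PS1 and replicates 1, 2 and 4 of WT. Each replicate was taken as 1 mouse from the design, and small RNA libraries were made for 3 mice of each genotype. The tissue is a bulk dissection, so fewer active cells and less RNA per active cell cannot be told apart. The labels do not say what the mice did before death or at what time of day they were killed. The sum of estimated counts per total RNA library ran from 120958765 to 146904552, and values are given as CPM, counts scaled to the TMM-adjusted library size. CPM values are compared between libraries within a gene, not between genes, because they are not divided by transcript length.

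The labels were checked first. App, the gene of the amyloid precursor protein, stood at 3170, 3465 and 2948 CPM in APP/PS1 replicates 1, 2 and 3, against 1580, 1522 and 1548 CPM in WT replicates 1, 2 and 4, so all 3 transgenic libraries lay above all WT libraries. Its log2 fold change was 1.04 (SE 0.09), with an edgeR adjusted p of 0.117 with all 6 libraries and 0.0136 without APP/PS1 replicate 3. DESeq2 gave App an adjusted p of 6.0e-21 with all 6 libraries, where edgeR did not call this separated difference at 0.05. Prnp, whose promoter drives the transgenes of the widely used line with these alleles (the labels name no promoter), stood at 1019, 1160 and 937 CPM in APP/PS1 replicates 1, 2 and 3, against 475, 509 and 527 CPM in WT replicates 1, 2 and 4. Hippocampal subfield markers were present in all 6 libraries, and APP/PS1 replicate 3 also carried transcripts that define the cerebellum. All 11 tested genes of a list of 12 cerebellar markers were highest in that library, and none of the 12 was at 0 in all libraries. Their summed level was 134, 160 and 3786 CPM in APP/PS1 replicates 1, 2 and 3, against 123 to 188 CPM in WT. Cbln3, a cerebellin of cerebellar granule cells, stood at 612 CPM in APP/PS1 replicate 3 and at or below 0.872 CPM in each of the other 5 libraries. CA1 pyramidal cell markers lay lower there, with 9 of 10 lowest in APP/PS1 replicate 3 and a summed level of 955, 868 and 787 CPM in APP/PS1 replicates 1, 2 and 3, against 913 to 931 CPM in WT. The exception was Etv1, at 155, 165 and 403 CPM in APP/PS1 replicates 1, 2 and 3, against 155 to 178 CPM in WT, and the other 9 markers summed to 800, 703 and 384 CPM in APP/PS1 replicates 1, 2 and 3, against 752 to 767 CPM in WT. The genotype comparison is therefore given with and without this library, and the part that the cerebellar transcripts have in each result was not tested.

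Promoter sequences are shown for 6 members, as examples of the letters close to the start sites of these genes. Egr4, Nr4a1 and Npas4 were lowest in APP/PS1 replicate 3, Dusp1 and Dusp5 were highest in it, and Fos is the prototype of the class. Each line gives the 250 bases before the RefSeq start site in GRCm38.p6 (mm10), read 5′ to 3′ on the strand of the gene. Capitals mark the core of the cyclic AMP response element (CRE), the letters TGACG or CGTCA, to which CREB binds, and the CArG box, the element of SRF. The regions are chr12:85473640-85473889 on the plus strand for Fos, chr6:85513590-85513839 on the minus strand for Egr4, chr15:101266596-101266845 on the plus strand for Nr4a1, chr19:4989972-4990221 on the minus strand for Npas4, chr17:26508473-26508722 on the minus strand for Dusp1 and chr19:53528895-53529144 on the plus strand for Dusp5.
Fos: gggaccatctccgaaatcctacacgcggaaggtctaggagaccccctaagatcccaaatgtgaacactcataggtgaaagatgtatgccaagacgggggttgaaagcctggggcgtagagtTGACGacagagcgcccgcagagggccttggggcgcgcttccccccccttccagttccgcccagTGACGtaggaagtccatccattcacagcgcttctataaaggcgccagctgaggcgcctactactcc
Egr4: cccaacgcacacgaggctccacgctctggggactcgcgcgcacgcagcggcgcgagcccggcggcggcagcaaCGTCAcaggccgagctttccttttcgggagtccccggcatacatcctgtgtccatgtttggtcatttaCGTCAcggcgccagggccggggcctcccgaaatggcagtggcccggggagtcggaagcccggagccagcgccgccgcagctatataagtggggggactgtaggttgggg
Nr4a1: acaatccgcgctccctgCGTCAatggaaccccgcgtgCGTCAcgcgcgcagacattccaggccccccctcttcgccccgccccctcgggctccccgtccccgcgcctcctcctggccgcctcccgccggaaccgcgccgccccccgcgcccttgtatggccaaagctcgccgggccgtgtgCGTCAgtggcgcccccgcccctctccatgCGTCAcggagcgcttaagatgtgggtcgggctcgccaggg
Npas4: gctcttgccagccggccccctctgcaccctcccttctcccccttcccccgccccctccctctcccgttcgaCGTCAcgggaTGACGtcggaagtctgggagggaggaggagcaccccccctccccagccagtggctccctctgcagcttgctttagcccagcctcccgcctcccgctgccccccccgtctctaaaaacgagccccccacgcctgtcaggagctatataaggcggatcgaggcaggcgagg
Dusp1: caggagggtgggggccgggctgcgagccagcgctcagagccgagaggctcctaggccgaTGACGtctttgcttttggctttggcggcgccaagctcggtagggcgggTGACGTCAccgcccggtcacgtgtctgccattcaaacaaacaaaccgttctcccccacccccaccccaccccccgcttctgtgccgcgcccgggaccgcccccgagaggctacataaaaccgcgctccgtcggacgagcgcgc
Dusp5: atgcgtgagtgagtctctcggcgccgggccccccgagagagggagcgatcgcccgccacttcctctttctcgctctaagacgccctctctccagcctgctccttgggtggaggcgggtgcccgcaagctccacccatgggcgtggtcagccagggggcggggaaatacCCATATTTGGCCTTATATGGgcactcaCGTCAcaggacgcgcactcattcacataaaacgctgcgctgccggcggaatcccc

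The capitals show 2 CRE cores each in Fos, Egr4 and Npas4, 4 in Nr4a1, and 3 in Dusp1, of which a pair overlaps in the full element TGACGTCA. In Npas4 the pair of cores stands on opposite strands a few bases apart. Dusp5 has 1 core just downstream of 2 CArG boxes that abut each other. The start sites used for Nr4a1 and Npas4 lie within the spans of their genes, which have other starts farther upstream. RefSeq promoter windows of 300 bases (250 before and 50 after the start) were found for 29 members, with 36 windows in all because Egr2, Homer1 and Maff have several. The members without one are Egr1, Egr3, Klf10, Crem, Ier2, Arc, Nptx2, Vgf, Sik1 and Trib1.

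A CRE core, on either strand, was present in 25 of the 36 member windows (69.4%) and in 20.8% of all 32851 windows. With 1 window per gene it was present in 20 of 29 members, against 21% of all genes. The full CRE, TGACGTCA, which contains a core on each strand, was in 4 member windows (11.1%), those of Btg2, Dusp1, Maff and Plk2, against 1.79% of all windows. The EGR element, GCGTGGGCG or GCGGGGGCG on either strand, was in 6 member windows (16.7%) against 3.47% of all windows, in Fosb, Fosl2, Klf2, Klf4, Maff and Nr4a1. The CArG box was found in 2 of the 29 genes, Dusp5 and Egr2, and with 1 window per gene in 1 member (3.45%) against 1.57% of all genes. Egr2 supplies 4 of the 5 member windows that hold it (13.9% of 36, against 1.63% of all windows), and 3 of those 4 overlap and share the same box. A TATA box, TATAAA on either strand, was in 6 member windows (16.7%) against 13.6% of all. The AP-1 site TGANTCA and the NR4A site AAAGGTCA, searched on both strands, were in 0 of 36 member windows, against 7.81% and 1.51% of all windows. A match is a description of letters in this window and says nothing of binding. Letters farther upstream were not searched, nor were members without a window, such as Egr1. The lack of a CArG box in Fos therefore holds for this window only. CRE cores were present both in members that were lowest in APP/PS1 replicate 3, such as Egr4, Nr4a1 and Npas4, and in members that were highest there, such as Atf3, Nfil3, Dusp1 and Dusp5.

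The genotype comparison asked whether the level of these activity-induced transcripts differs in the transgenic hippocampus. With all 6 libraries 0 of the 39 members passed edgeR's quasi-likelihood test at a Benjamini-Hochberg adjusted p under 0.05, and the members' adjusted p ran from 0.887 to 0.996. Over all 18060 genes tested the same rule called 1 gene, which is 0.00554%. The log2 fold change of APP/PS1 over WT was negative for 30 members and positive for 9, and its median was -0.17, where 47.7% of all genes tested were negative and their median was 0.01. Without APP/PS1 replicate 3, 28 members were negative and 11 positive, and the median was -0.12, where 50.3% of all genes were negative and their median was 0.00. Several lists of cell type markers had medians as far from 0 in that fit, among them oligodendrocytes at -0.20 and choroid plexus at 0.78, and their part in the members' values was not tested. In that fit 0 members passed, each with an edgeR adjusted p of 0.995, against 0.0273% of all genes tested. At an unadjusted p under 0.05, edgeR listed 4 members with all 6 libraries, all of them lower, where 3.42% of all genes were listed and 1.52% were listed as lower. Without APP/PS1 replicate 3 it listed 8, with 7 lower and 1 higher, where 4.03% of all genes were listed, 2.15% as lower and 1.88% as higher. DESeq2 called 0 members with all 6 libraries, with a smallest adjusted p of 0.775, where 0.117% of all genes were called, and listed 5 members at an unadjusted p under 0.05, where 4.4% of all genes were listed.

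**Figure D1:**
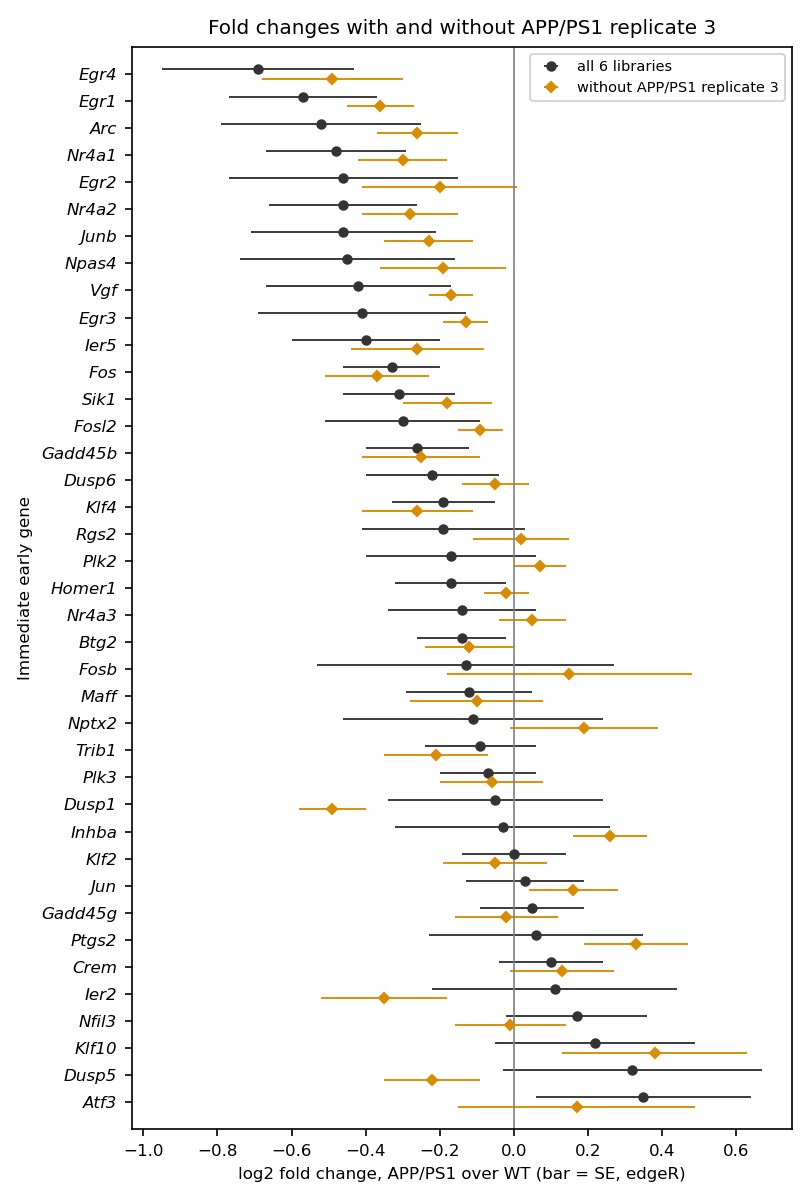
Log2 fold changes of APP/PS1 over WT for the 39 immediate early genes (x axis, log2 scale; bar, SE of the edgeR fit), with all 6 libraries (circles) and without APP/PS1 replicate 3 (diamonds). Most circles lie left of 0, from -0.69 for Egr4 to 0.35 for Atf3, and without the library most values lie closer to 0, while those of Dusp1, Ier2 and Dusp5 move to -0.49, -0.35 and -0.22.

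APP/PS1 replicate 3 was the lowest of the 6 libraries for 23 of the 39 members, and for 30.3% of all genes tested. It was the highest for 6 members, Atf3, Nfil3, Ier2, Dusp1, Dusp5 and Gadd45g, and for 31.4% of all genes. In that library the log2 CPM of the median member, minus its mean log2 CPM in the other 5 libraries, was -0.60, where the median over all genes was 0.02. By the same measure the values of the median member were 0.10 and 0.01 in the other two APP/PS1 libraries, against 0.07, 0.15 and 0.11 in WT replicates 1, 2 and 4. In APP/PS1 replicate 3, 8 members lay more than 2-fold below the mean of the others and 1 lay more than 2-fold above it, where 4.65% and 6.3% of all genes did. No member was more than 2-fold off in any of the other 5 libraries. The libraries also differed within the WT group: WT replicate 2 was the highest library for 15 members, among them Fos, Junb, Egr1, Egr2, Egr4, Nr4a1, Npas4, Arc and Sik1, and for 12.5% of all genes. Among the 5 libraries other than APP/PS1 replicate 3, WT replicate 2 was highest for 20 members against 18.5% of all genes, and APP/PS1 replicate 2 was lowest for 19 members against 22.4% of all genes.

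**Figure D2:**
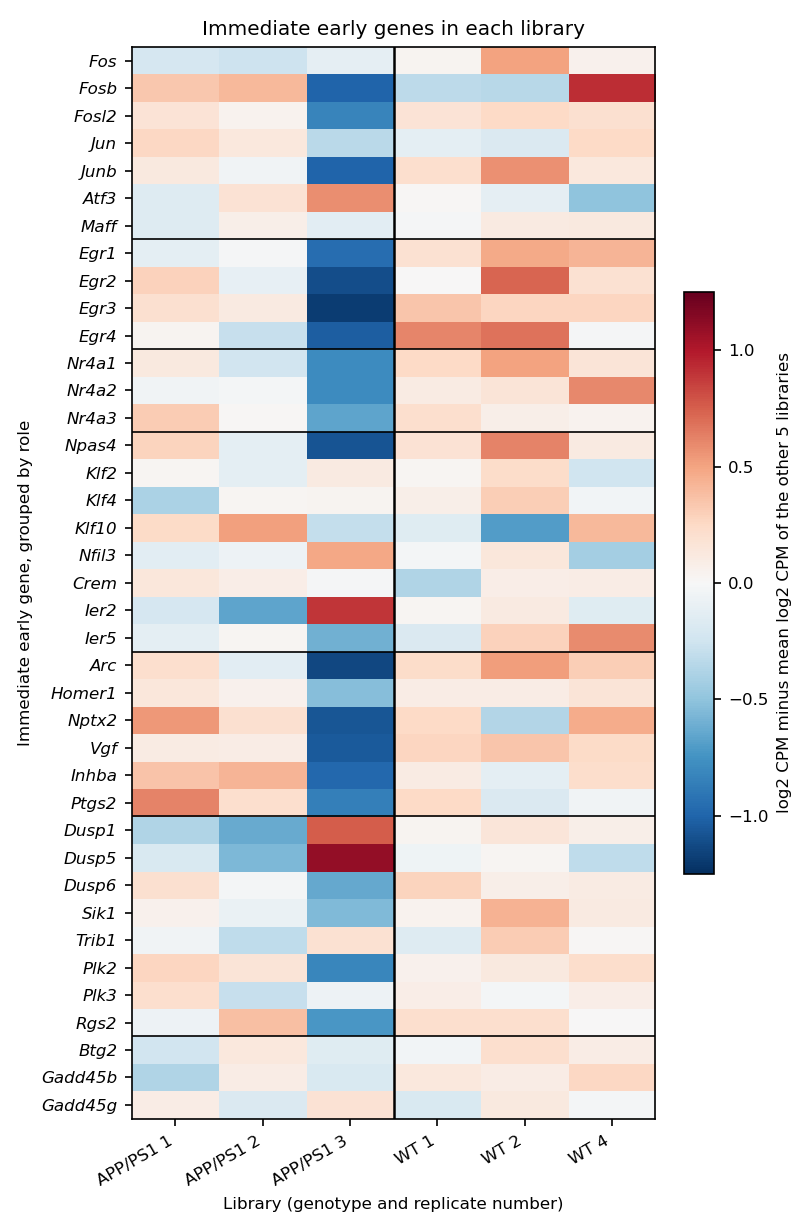
Each of the 39 immediate early genes (rows, grouped by role) in each of the 6 libraries (columns), as log2 CPM minus the mean log2 CPM of the other 5 libraries (blue lower, red higher). The column of APP/PS1 replicate 3 is the lowest for 23 genes and the highest for 6, Atf3, Nfil3, Ier2, Dusp1, Dusp5 and Gadd45g.

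The coefficient of variation among the 3 WT libraries had a median of 10.1% over the members and 8.43% over all genes tested. Within WT it was widest for Fosb, at 45.5%, Klf10, at 31.8%, and Nptx2, at 23.4%, and narrowest for Fosl2, at 2.24%, Homer1, at 2.37%, and Egr3, at 2.77%. Among the 3 APP/PS1 libraries the median was 25.5% over the members and 16.2% over all genes, and with replicate 3 left out it was 10.4% and 8.77%. The groups did not overlap, with all APP/PS1 values below all WT values, for 10 of 39 members, against 4.76% of all genes tested, and the opposite order held for 0 members, against 5.63%. The 10 were Fos, Fosl2, Junb, Egr1, Egr3, Nr4a1, Nr4a2, Arc, Vgf and Gadd45b. Without APP/PS1 replicate 3 it held for 12 members, those 10 with Ier2 and Dusp1 added, against 9.37% of all genes, and the opposite order held for 1, Inhba, against 10%.

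Among the AP-1 factors, leucine zipper proteins that pair with one another on DNA, Fos is the most used activity mark. Fos (chromosome 12, 85473890 to 85477274) stood at 21.4, 20.8 and 22.7 CPM in APP/PS1 replicates 1, 2 and 3, against 24.5, 32.3 and 25 CPM in WT replicates 1, 2 and 4. The groups did not overlap, and unlike most members Fos was not low in APP/PS1 replicate 3, which was the highest of its group. Its log2 fold change was -0.33 (SE 0.13, edgeR adjusted p = 0.887), and -0.37 (SE 0.14, edgeR adjusted p = 0.995) without that library. Fosb (chromosome 7, 19302696 to 19310118), whose splice form accumulates with repeated activity, stood at 20.1, 21 and 9.28 CPM in APP/PS1 replicates 1, 2 and 3, against 13.7, 13.5 and 28.1 CPM in WT replicates 1, 2 and 4. WT replicate 4 was the highest library and APP/PS1 replicate 3 the lowest, and the groups overlapped. Its log2 fold change was -0.13 (SE 0.40) with that library and 0.15 (SE 0.33) without it. The gene-level table does not separate its splice forms.

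Fosl2, which encodes Fra-2, stood at 107, 99.7 and 60.4 CPM in APP/PS1 replicates 1, 2 and 3, against 108, 113 and 109 CPM in WT replicates 1, 2 and 4. The 5 libraries other than APP/PS1 replicate 3 were close together and that library was far lower, and the log2 fold change was -0.30 (SE 0.21) with it and -0.09 (SE 0.06) without it. Junb, which encodes a Jun protein that restrains c-Jun, stood at 45.4, 41.5 and 23.7 CPM in APP/PS1 replicates 1, 2 and 3, against 47.9, 58.8 and 45.7 CPM in WT replicates 1, 2 and 4. Every APP/PS1 value lay below every WT value, although APP/PS1 replicate 1 and WT replicate 4 nearly met, and the log2 fold change was -0.46 (SE 0.25), or -0.23 (SE 0.12) without APP/PS1 replicate 3. Jun, the partner of Fos, stood at 116, 107 and 82.1 CPM in APP/PS1 replicates 1, 2 and 3, against 93.3, 89.8 and 115 CPM in WT replicates 1, 2 and 4, and the groups overlapped in full. Its log2 fold change was 0.03 (SE 0.16), and 0.16 (SE 0.12) without APP/PS1 replicate 3.

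The stress-induced member Atf3 had the fewest estimated counts of the class, and stood at 0.557, 0.681 and 0.864 CPM in APP/PS1 replicates 1, 2 and 3, against 0.617, 0.576 and 0.455 CPM in WT replicates 1, 2 and 4. It was highest in APP/PS1 replicate 3, and rested on 66 to 118 estimated counts per library, with a log2 fold change of 0.35 (SE 0.29), or 0.17 (SE 0.32) without that library. Maff, a small Maf protein without an activation domain of its own, stood at 1.7, 1.93 and 1.72 CPM in APP/PS1 replicates 1, 2 and 3, against 1.85, 1.98 and 2 CPM in WT replicates 1, 2 and 4. Its values spanned a narrow range in which the groups overlapped.

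The EGR factors, zinc finger proteins of which Egr1 is needed to stabilise long-lasting synaptic plasticity in mice, had a median log2 fold change of -0.51, or -0.28 without APP/PS1 replicate 3. The NR4A median was -0.46 with all 6 libraries and equal to the EGR median without APP/PS1 replicate 3. All 4 EGR members had negative values in both fits, and all 4 were lowest in that library. Egr1 (chromosome 18, 34861207 to 34864956) stood at 184, 195 and 114 CPM in APP/PS1 replicates 1, 2 and 3, against 220, 259 and 252 CPM in WT replicates 1, 2 and 4, a mean of 164 ± 44.3 CPM in APP/PS1, against 244 ± 20.6 CPM in WT (SD, n = 3 each). Every APP/PS1 library lay below every WT library. Its log2 fold change was -0.57 (SE 0.20, edgeR adjusted p = 0.887), and -0.36 (SE 0.09, edgeR adjusted p = 0.995) without that library, where DESeq2 gave an adjusted p of 0.0485. Egr4 (chromosome 6, 85511121 to 85513589) stood at 15.1, 12.6 and 8.17 CPM in APP/PS1 replicates 1, 2 and 3, against 21.1, 22 and 14.8 CPM in WT replicates 1, 2 and 4. WT replicate 4 lay just below APP/PS1 replicate 1, so the groups overlapped, and the log2 fold change was -0.69 (SE 0.26, edgeR adjusted p = 0.887), or -0.49 (SE 0.19, edgeR adjusted p = 0.995) without APP/PS1 replicate 3.

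Egr3 stood at 118, 112 and 52.9 CPM in APP/PS1 replicates 1, 2 and 3, against 129, 123 and 123 CPM in WT replicates 1, 2 and 4. Of the members it was the one farthest below the others in APP/PS1 replicate 3, at 0.437 of the mean of the other 5 libraries, and its log2 fold change was -0.41 (SE 0.28) with that library and -0.13 (SE 0.06) without it. Egr2, also known for its role in myelinating Schwann cells, stood at 9.56, 7.62 and 4.24 CPM in APP/PS1 replicates 1, 2 and 3, against 8.07, 12.3 and 9 CPM in WT replicates 1, 2 and 4. The groups overlapped, with APP/PS1 replicate 1 above 2 of the WT libraries, and the log2 fold change was -0.46 (SE 0.31), or -0.20 (SE 0.21) without APP/PS1 replicate 3.

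**Figure D3:**
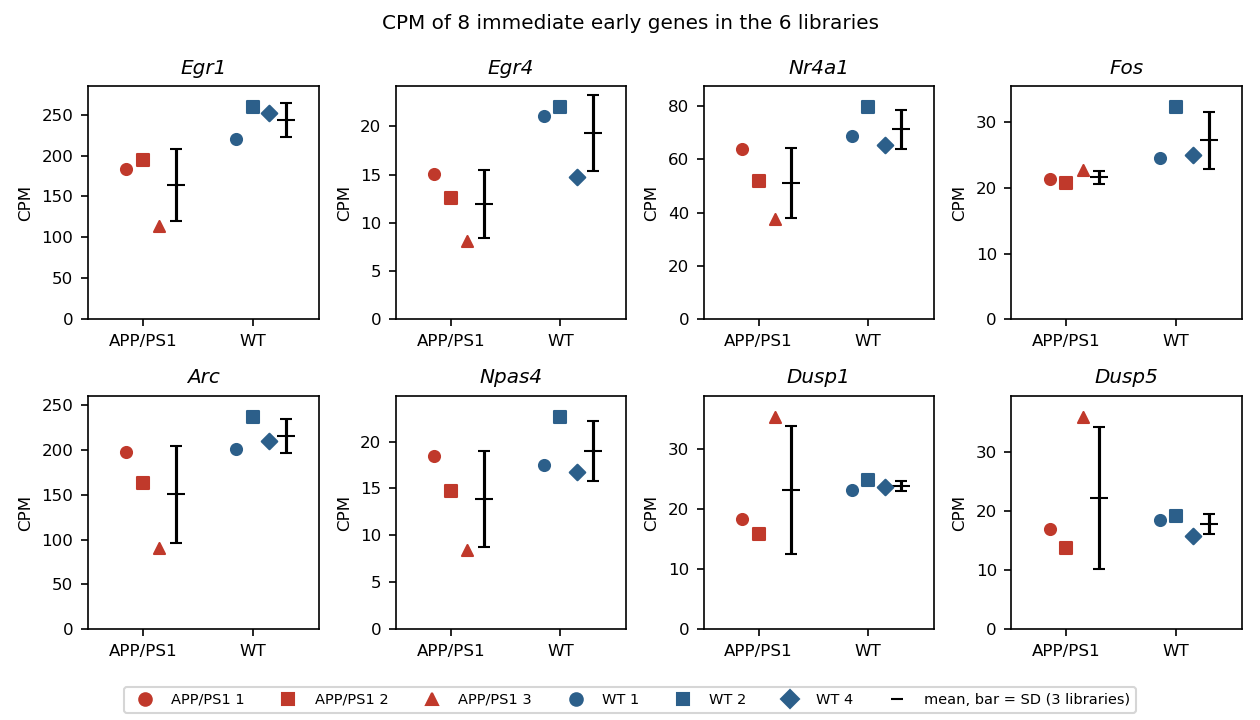
CPM (y axis, from 0) of 8 immediate early genes in the 3 APP/PS1 and 3 WT libraries (points, 1 per library; black bar, mean and SD of 3 libraries). Egr1, Nr4a1, Fos and Arc have no APP/PS1 point above a WT point, and APP/PS1 replicate 3 (triangle) is lowest for Egr1, Egr4, Nr4a1, Arc and Npas4 and highest for Dusp1 and Dusp5, at 35.3 and 36 CPM.

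The NR4A members are orphan nuclear receptors that act as transcription factors without a known ligand. Nr4a1 (chromosome 15, 101253902 to 101274795) stood at 63.9, 52 and 37.8 CPM in APP/PS1 replicates 1, 2 and 3, against 68.9, 79.6 and 65.5 CPM in WT replicates 1, 2 and 4. The groups did not overlap, and the log2 fold change was -0.48 (SE 0.19, edgeR adjusted p = 0.887), or -0.30 (SE 0.12, edgeR adjusted p = 0.995) without APP/PS1 replicate 3. Nr4a2, which is also required for midbrain dopamine neurons, stood at 87.2, 88.4 and 56.7 CPM in APP/PS1 replicates 1, 2 and 3, against 94.8, 97.9 and 126 CPM in WT replicates 1, 2 and 4. Here too the groups did not overlap, with WT replicate 4 apart from the other two WT libraries, and the log2 fold change was -0.46 (SE 0.20), or -0.28 (SE 0.13) without APP/PS1 replicate 3. Nr4a3 stood at 170, 142 and 96.7 CPM in APP/PS1 replicates 1, 2 and 3, against 160, 147 and 144 CPM in WT replicates 1, 2 and 4. APP/PS1 replicate 1 was the highest library and replicate 3 the lowest, and the log2 fold change was -0.14 (SE 0.20), or 0.05 (SE 0.09) without replicate 3.

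Among the other transcription factors, Npas4, which is induced by calcium entry in neurons and shapes inhibitory synapses, stood at 18.5, 14.7 and 8.39 CPM in APP/PS1 replicates 1, 2 and 3, against 17.5, 22.6 and 16.8 CPM in WT replicates 1, 2 and 4. The groups overlapped, and the log2 fold change was -0.45 (SE 0.29), or -0.19 (SE 0.17) without APP/PS1 replicate 3. Ier2, an early response gene of many cell types, went the other way in that library, at 4.69, 3.63 and 8.87 CPM in APP/PS1 replicates 1, 2 and 3, against 5.37, 5.67 and 4.86 CPM in WT replicates 1, 2 and 4. APP/PS1 replicates 1 and 2 lay below all WT libraries and APP/PS1 replicate 3 above them, so that the log2 fold change was 0.11 (SE 0.33) with it and -0.35 (SE 0.17) without it. Its family member Ier5 averaged 21.3 ± 3.81 CPM in APP/PS1, against 28.1 ± 6.08 CPM in WT (SD, n = 3 each), with a log2 fold change of -0.40 (SE 0.20), or -0.26 (SE 0.18) without APP/PS1 replicate 3.

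Klf2, Klf4 and Klf10 are Krüppel-like factors. Klf2 and Klf4, which endothelial cells also express, averaged 8.01 ± 0.535 and 8.76 ± 1.2 CPM in APP/PS1, against 8.04 ± 1.1 and 10 ± 1.01 CPM in WT. Klf10, induced by TGF-beta as well as by activity, averaged 32 ± 7.31 CPM in APP/PS1, against 27.4 ± 8.72 CPM in WT, with APP/PS1 replicate 2 the highest library and WT replicate 2 the lowest. Nfil3, a leucine zipper repressor with a role in the clock, averaged 11.6 ± 2.34 CPM in APP/PS1, against 10.3 ± 1.67 CPM in WT and was highest in APP/PS1 replicate 3. Crem, which encodes relatives of CREB including the inducible repressor ICER, averaged 11.1 ± 0.495 CPM in APP/PS1, against 10.3 ± 1.52 CPM in WT. Each of these differences in means was smaller than the sum of the SDs of both groups. Without APP/PS1 replicate 3 the log2 fold change of Nfil3 turned to -0.01 (SE 0.15), against 0.17 with it, and that of Klf10 was 0.38 (SE 0.25), against 0.22 with it.

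All 6 synaptic and secreted effectors were lowest in APP/PS1 replicate 3. Arc (chromosome 15, 74669081 to 74672570), whose protein drives removal of AMPA receptors from synapses, stood at 198, 163 and 91 CPM in APP/PS1 replicates 1, 2 and 3, against 201, 237 and 210 CPM in WT replicates 1, 2 and 4. All APP/PS1 values lay below all WT values, by a narrow margin between APP/PS1 replicate 1 and WT replicate 1. The log2 fold change of Arc was -0.52 (SE 0.27, edgeR adjusted p = 0.887), or -0.26 (SE 0.11, edgeR adjusted p = 0.995) without APP/PS1 replicate 3. Vgf, the precursor of secreted neuropeptides, stood at 165, 164 and 84.8 CPM in APP/PS1 replicates 1, 2 and 3, against 182, 191 and 179 CPM in WT replicates 1, 2 and 4. No APP/PS1 library reached a WT library, and the log2 fold change was -0.42 (SE 0.25), or -0.17 (SE 0.06, edgeR adjusted p = 0.995) without APP/PS1 replicate 3.

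Homer1, a scaffold of the postsynaptic density with a short form induced by activity, stood at 191, 181 and 129 CPM in APP/PS1 replicates 1, 2 and 3, against 185, 185 and 192 CPM in WT replicates 1, 2 and 4. Apart from APP/PS1 replicate 3 the 5 libraries were nearly level, and the log2 fold change was -0.17 (SE 0.15) with it and -0.02 (SE 0.06) without it. The short form cannot be separated from the others in a table of gene symbols. Inhba, the activin subunit, stood at 32, 33.1 and 14.8 CPM in APP/PS1 replicates 1, 2 and 3, against 27.6, 24.4 and 29.6 CPM in WT replicates 1, 2 and 4. APP/PS1 replicates 1 and 2 lay above all WT libraries and replicate 3 below them, and the log2 fold change was -0.03 (SE 0.29) with that library and 0.26 (SE 0.10, edgeR adjusted p = 0.995) without it. Ptgs2, which encodes cyclooxygenase-2, also had a positive log2 fold change without that library, of 0.33 (SE 0.14), and averaged 33 ± 12.9 CPM in APP/PS1, against 31.6 ± 4.11 CPM in WT with all 3 libraries each. Nptx2, a secreted pentraxin that clusters AMPA receptors, averaged 20.5 ± 8.61 CPM in APP/PS1, against 22 ± 5.15 CPM in WT. Without APP/PS1 replicate 3 its APP/PS1 mean was 25.2 CPM and the log2 fold change turned to 0.19 (SE 0.20), against -0.11 with it.

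The phosphatases that switch off MAP kinases went different ways in APP/PS1 replicate 3. Dusp1 (chromosome 17, 26505591 to 26508472), a nuclear phosphatase, stood at 18.3, 15.8 and 35.3 CPM in APP/PS1 replicates 1, 2 and 3, against 23.2, 24.8 and 23.7 CPM in WT replicates 1, 2 and 4. The WT libraries were close together, APP/PS1 replicates 1 and 2 lay below all of them, and APP/PS1 replicate 3 lay above them. The log2 fold change was -0.05 (SE 0.29, edgeR adjusted p = 0.977) with all 6 libraries and -0.49 (SE 0.09, edgeR adjusted p = 0.995) without APP/PS1 replicate 3. DESeq2 without that library, a fit added after seeing the data, gave Dusp1 an adjusted p of 0.00376 and called 2 members, Dusp1 and Egr1, both lower in APP/PS1, where it called 0.326% of all genes tested and 0.191% as lower.

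Dusp5, a phosphatase of nuclear ERK, stood at 17, 13.7 and 36 CPM in APP/PS1 replicates 1, 2 and 3, against 18.5, 19.2 and 15.9 CPM in WT replicates 1, 2 and 4. APP/PS1 replicate 3 was 2.13 times the mean of the other 5 libraries, the highest such ratio of the 39 members, and the groups overlapped. The log2 fold change was 0.32 (SE 0.35) with that library and -0.22 (SE 0.13) without it. Dusp6, a phosphatase of cytoplasmic ERK, was by contrast lowest in that library, at 75.3, 66.2 and 46.2 CPM in APP/PS1 replicates 1, 2 and 3, against 78.8, 69.5 and 71.1 CPM in WT replicates 1, 2 and 4. Its log2 fold change was -0.22 (SE 0.18) with that library and -0.05 (SE 0.09) without it.

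The genotypes overlapped for each of the kinases and other signalling regulators. Plk2, a polo-like kinase that weakens active synapses, stood at 205, 192 and 109 CPM in APP/PS1 replicates 1, 2 and 3, against 181, 188 and 199 CPM in WT replicates 1, 2 and 4. As for Homer1, the 5 libraries other than APP/PS1 replicate 3 were close, and the log2 fold change was -0.17 (SE 0.23) with it and 0.07 (SE 0.07) without it. Plk3 averaged 8.8 ± 1.28 CPM in APP/PS1, against 9.24 ± 0.297 CPM in WT. Sik1, a kinase that restrains CREB coactivators, averaged 34.9 ± 6.01 CPM in APP/PS1, against 43.4 ± 5.46 CPM in WT, with a log2 fold change of -0.31 (SE 0.15), or -0.18 (SE 0.12) without APP/PS1 replicate 3. Trib1, a pseudokinase, averaged 15.2 ± 2.26 CPM in APP/PS1, against 16.2 ± 2.34 CPM in WT, and Rgs2, which shortens G protein signals, 25.5 ± 7.86 CPM in APP/PS1, against 29 ± 2.04 CPM in WT. For Rgs2 the APP/PS1 mean without replicate 3 was 29.5 CPM and its log2 fold change turned to 0.02 (SE 0.13), against -0.19 with it, while that of Trib1 was -0.21 (SE 0.14), against -0.09 with it. Of these genes, Plk2, Sik1 and Rgs2 were lowest in APP/PS1 replicate 3.

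None of the 3 growth arrest genes was lowest in APP/PS1 replicate 3. Gadd45b, which links activity to DNA demethylation, stood at 4.6, 6.02 and 5.13 CPM in APP/PS1 replicates 1, 2 and 3, against 6.15, 6.02 and 6.66 CPM in WT replicates 1, 2 and 4. The groups did not overlap, although the highest APP/PS1 value and the lowest WT value are equal at this precision, and the log2 fold change was -0.26 (SE 0.14), or -0.25 (SE 0.16) without APP/PS1 replicate 3. Btg2, an antiproliferative factor, averaged 16.9 ± 1.94 CPM in APP/PS1, against 18.6 ± 1.32 CPM in WT, and Gadd45g averaged 7.54 ± 0.808 CPM in APP/PS1, against 7.28 ± 0.657 CPM in WT. The log2 fold change of Gadd45g was 0.05 with APP/PS1 replicate 3 and -0.02 without it.

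Further activity-induced genes and the regulators upstream of the class were examined as lists. Of 33 other activity-induced genes tested, 0 passed edgeR's test in either direction with or without APP/PS1 replicate 3. In that list the log2 fold change was negative for 23 genes and positive for 10, and its median was -0.05, or -0.03 without that library. Of the 33, 18 were lowest in APP/PS1 replicate 3, among them Bdnf, a neurotrophin, at 46, 45.1 and 32.6 CPM in APP/PS1 replicates 1, 2 and 3, against 47.5, 39.1 and 41.4 CPM in WT replicates 1, 2 and 4. The 3 genes with the smallest unadjusted p were Midn, with a log2 fold change of -0.26 (SE 0.09), Per1, a clock gene that CREB also drives, with -0.19 (SE 0.07), and Arl4d, with -0.41 (SE 0.16), each with an edgeR adjusted p of 0.887. Of 35 upstream regulators 0 passed edgeR's test in either direction, 23 were negative and 12 positive, and the median was -0.05, or -0.01 without APP/PS1 replicate 3. Mef2c, a calcium-responsive transcription factor of neurons, stood at 101, 121 and 70.6 CPM in APP/PS1 replicates 1, 2 and 3, against 203, 206 and 260 CPM in WT replicates 1, 2 and 4. The groups did not overlap, and its log2 fold change was -1.19 (SE 0.21, edgeR adjusted p = 0.887), or -1.01 (SE 0.14, edgeR adjusted p = 0.388) without APP/PS1 replicate 3. DESeq2 gave it an adjusted p of 3.1e-04 with all 6 libraries and 1.9e-09 without APP/PS1 replicate 3. Srf, which binds the CArG box, had -0.29 (SE 0.15), and Rps6ka1, a kinase downstream of ERK, had 1.58 (SE 0.77), or 0.03 without APP/PS1 replicate 3. Camk4, a nuclear calcium-dependent kinase, stood at 324, 306 and 1047 CPM in APP/PS1 replicates 1, 2 and 3, against 325, 311 and 346 CPM in WT replicates 1, 2 and 4. Its log2 fold change was 0.77 (SE 0.47), or -0.06 (SE 0.07) without APP/PS1 replicate 3, the library with cerebellar transcripts. The part of those transcripts in its level was not tested.

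Markers of cells and regions were placed beside the members in each library. In APP/PS1 replicate 3 the median of log2 CPM over a list, minus the mean log2 CPM of the other 5 libraries, was -0.60 for the immediate early genes, -0.86 for CA1 pyramidal cells, -0.92 for CA2 and CA3 pyramidal cells and -0.79 for dentate gyrus granule cells. It lay at -0.34 for pan-neuronal genes, at 0.41 for astrocytes, at 0.15 for endothelium and mural cells and at 4.94 for the cerebellum. It lay at -0.96 for GABAergic interneurons, at -0.63 for microglia and at -0.30 for oligodendrocytes, and at -0.71, -0.61 and -0.32 for neocortex, striatum and thalamus. The other 5 libraries ran from 0.02 to 0.40 for the 3 hippocampal subfield lists. In WT replicate 2, where most members were highest among the 5 libraries, these subfield lists lay at 0.11, 0.06 and 0.02, and the heat shock list at -0.17. WT replicate 1 stood apart in red blood cell genes, at 2.66, and APP/PS1 replicate 2 in choroid plexus genes, at 1.04, and in those libraries the immediate early genes lay at 0.07 and 0.01. These are medians, and in APP/PS1 replicate 3 the summed CPM of some lists differed from them. Astrocyte genes summed to 7166 CPM there, against 7803 to 8886 CPM in the other 5 libraries. Sums for GABAergic interneurons, striatum and thalamus were 1139, 248 and 683 CPM, against 1077 to 1224, 206 to 230 and 196 to 243 CPM. The sums of the 3 subfield, neocortex, microglia, pan-neuronal and oligodendrocyte lists were lowest in that library. Between genotypes and without APP/PS1 replicate 3, where the median log2 fold change of the immediate early genes was -0.12, several marker lists had medians of similar or larger size. The median was -0.22 for thalamus, -0.20 for oligodendrocytes with 11 of 11 genes negative, -0.18 for neocortex, -0.15 for GABAergic interneurons with 11 of 12 negative and -0.14 for astrocytes with 11 of 11 negative. It was 0.78 for choroid plexus with 12 of 12 positive, 0.20 for heat shock genes with 10 of 10 positive and -0.31 for red blood cell genes with 4 of 5 negative. The 3 hippocampal subfield lists lay at -0.04 for CA1, 0.13 for CA2 and CA3 and 0.00 for dentate gyrus. No gene of the 18 lists passed edgeR's test with or without APP/PS1 replicate 3, and the part of these lists in the members' levels was not tested.

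**Figure D4:**
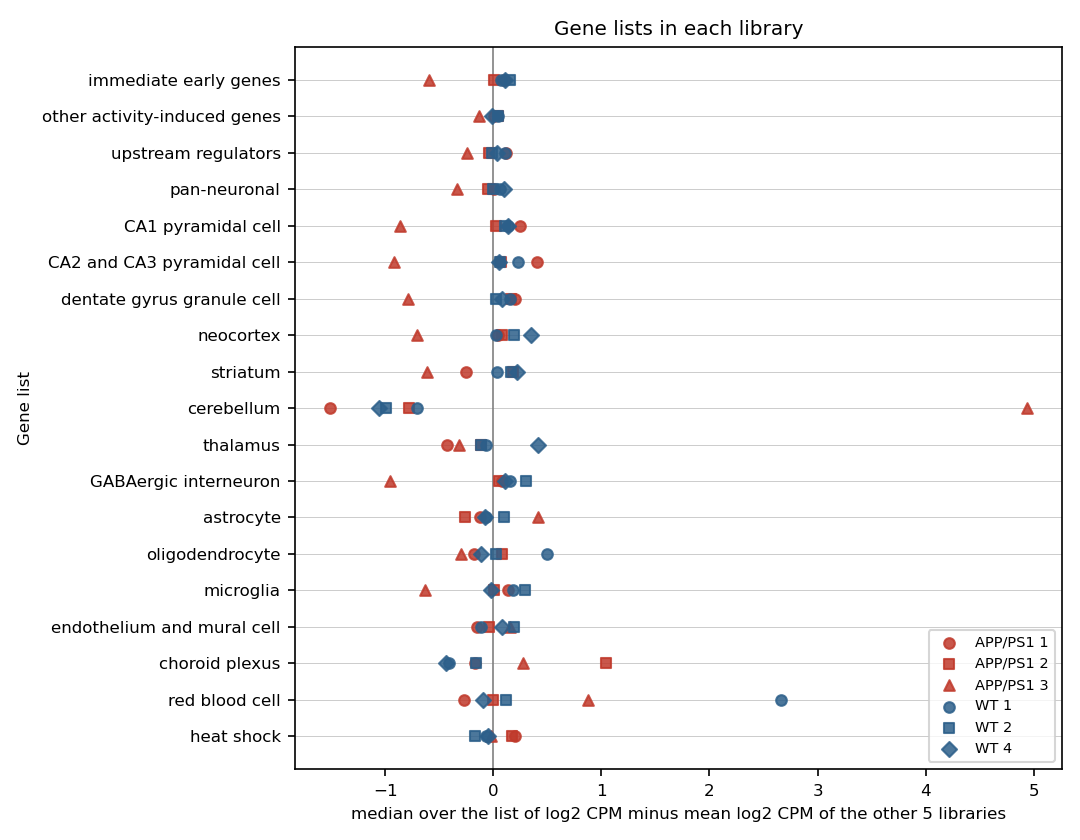
Median over each gene list of log2 CPM minus the mean log2 CPM of the other 5 libraries (x axis, log2 units), 1 point per library, for the immediate early genes and 18 other lists (rows). APP/PS1 replicate 3 (red triangle) lies at -0.60 for the immediate early genes, between -0.92 and -0.79 for the hippocampal subfields and at 4.94 for the cerebellum.

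Activity also drives miRNAs, and 5 of them were read from the small RNA table as a separate measurement. The genes of miR-132 and miR-212 lie side by side on chromosome 11 and are induced by CREB, and miR-134 is a dendritic miRNA regulated by activity. The mature sequences, from RefSeq in GRCm38.p6, are printed with the seed, bases 2 to 8, in capitals to show which of them share a seed. They lie at chr11:75173723-75173744 for miR-132-3p, chr11:75173443-75173464 for miR-212-3p, chr11:75173686-75173707 for miR-132-5p, chr11:75173403-75173425 for miR-212-5p and chr12:109734145-109734166 for miR-134-5p, all on the plus strand.
miR-132-3p: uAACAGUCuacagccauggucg
miR-212-3p: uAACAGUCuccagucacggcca
miR-132-5p: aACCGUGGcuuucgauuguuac
miR-212-5p: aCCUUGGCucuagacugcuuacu
miR-134-5p: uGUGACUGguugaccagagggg

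The 3p arms of miR-132 and miR-212 share the seed AACAGUC, and the 3 other sequences have seeds of their own. The small RNA columns were assigned to a genotype only, since their headings name no particular small RNA library, and they are called by those headings. miR-132-3p stood at 1067, 985 and 862 CPM in the APP/PS1 columns APP1, APP2 and APP3, against 1259, 1215 and 1200 CPM in the WT columns WT1, WT2 and WT4. No APP/PS1 column reached a WT column, and the log2 fold change was -0.33 (SE 0.14). miR-132-5p stood at 974, 1004 and 770 CPM in APP1, APP2 and APP3, against 1189, 1355 and 1161 CPM in WT1, WT2 and WT4, again without overlap, with a log2 fold change of -0.43 (SE 0.16). miR-212-3p stood at 78, 68.8 and 38.7 CPM in APP1, APP2 and APP3, against 101, 84.1 and 96 CPM in WT1, WT2 and WT4, and also did not overlap, with a log2 fold change of -0.60 (SE 0.26). The column APP3 was lowest for each of these 3 miRNAs and also for miR-212-5p, as it was for 29.9% of all 703 miRNAs tested.

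The other arm, miR-212-5p, overlapped between genotypes, at 626, 624 and 468 CPM in APP1, APP2 and APP3, against 549, 670 and 628 CPM in WT1, WT2 and WT4. For miR-212-5p the log2 fold change was -0.11 (SE 0.17), and 0.05 (SE 0.13) without the column APP3. miR-134-5p averaged 141 ± 14.9 CPM in APP/PS1, against 159 ± 15.1 CPM in WT (SD, n = 3 each), with a log2 fold change of -0.18 (SE 0.17). In all, 3 of the 5 miRNAs had every APP/PS1 value below every WT value, against 4.41% of all miRNAs tested. Those 3 come from the neighbouring genes of miR-132 and miR-212, so they are not independent of one another. None of the 5 passed edgeR's test, with an adjusted p of 0.958 for each, and 0% of all 703 miRNAs passed with edgeR. The unadjusted edgeR p was 0.0473 for miR-132-3p, 0.0268 for miR-132-5p and 0.0522 for miR-212-3p. It was 0.561 for miR-212-5p and 0.325 for miR-134-5p, and 25 of all miRNAs tested (3.56%) had one under 0.05. DESeq2 also called 0 of the 5. Without the column APP3 the log2 fold changes were -0.23 (SE 0.11) for miR-132-3p, -0.29 (SE 0.12) for miR-132-5p, -0.32 (SE 0.16) for miR-212-3p and -0.14 (SE 0.16) for miR-134-5p, each with an edgeR adjusted p of 0.998.

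**Figure D5:**
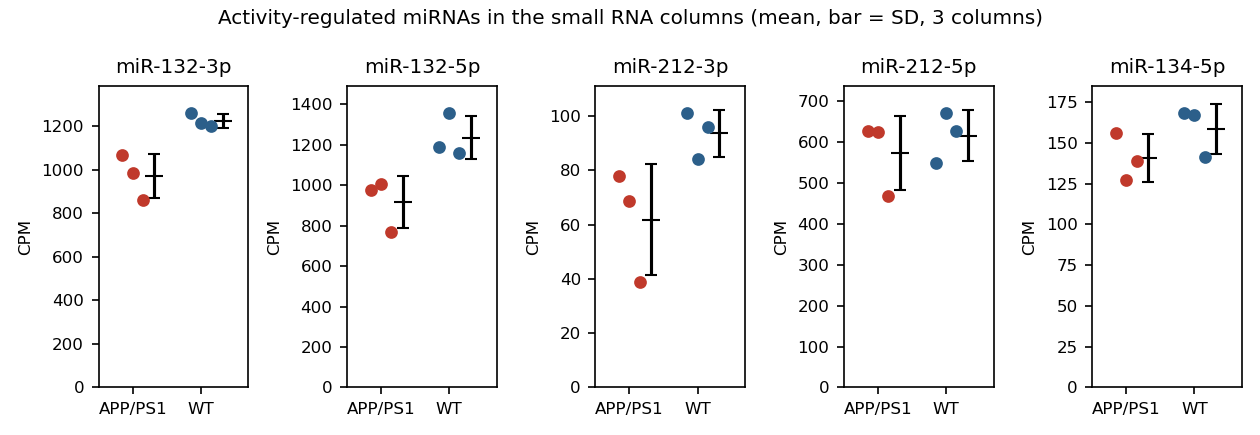
CPM (y axis, from 0) of 5 activity-regulated miRNAs in the 3 APP/PS1 and 3 WT small RNA columns (points; black bar, mean and SD of 3 columns). For miR-132-3p, miR-132-5p and miR-212-3p all APP/PS1 points lie below all WT points, with means of 971, 916 and 61.8 CPM in APP/PS1, against 1225, 1235 and 93.6 CPM in WT.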

How the data were processed

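Total RNA and small RNA libraries were measured in 3 APP/PS1 and 3 WT mice. The total RNA table as deposited gives an estimated count for each gene symbol in whole numbers, and the small RNA table as deposited gives a raw count for each mature miRNA. HISAT2, StringTie, DESeq and mm10 are named in the submitters' processing notes, without roles. Annotation, filters and strand setting: not given in the sources used here. Reads of overlapping or antisense genes may not be separated. In the total RNA table the values 4, 5 and 8 occurred 1817, 1346 and 1201 times, and 6 and 7 occurred 624 and 588 times. About 4 estimated counts may therefore stand for 1 fragment. The values 1, 2 and 3 occurred 990, 946 and 897 times, so lower values were not rare, and the conversion is not stated. The depth of the small RNA columns was 15593728 to 21631169 counts. Intervals from counting error are therefore not given, and the spread between libraries sets the precision: the biological coefficient of variation was 26.5%, or 19.7% without APP/PS1 replicate 3.

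APP/PS1 was compared with WT over each whole table with edgeR 4.0.16 (R 4.3.3; quasi-likelihood test, TMM normalization, default expression filter, no covariate). Benjamini-Hochberg adjustment was used with a threshold of 0.05. SE was derived from the fold change and the F statistic. Log2 CPM had a prior count of 2. DESeq2 1.42.0, limma-voom (limma 3.58.1), other size factors and filters, counts divided by 4, a block for the replicate number, and fits without each library in turn were the alternatives. The procedure was tested on simulated data. The labels do not say that the replicates are separate animals except through the design, so p-values measure the spread between these samples. The members, the lists and the markers were chosen with earlier results of these data known. All members are accounted for. Values in all 6 libraries were set to be given for the AP-1, EGR and NR4A families, Arc, Npas4, Homer1 and members with an unadjusted p under 0.05 with or without APP/PS1 replicate 3; those of other members were added after their values were seen. In each list the 3 genes with the smallest p could be named, and Bdnf, Camk4, Cbln3 and Etv1 were chosen after their values were seen. Circular RNA was not analysed here.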

Additional observations from a re-analysis of the deposited data

How the results depend on the processing

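The median log2 fold change of the 39 immediate early genes stayed negative in every alternative run, between -0.27 and -0.12 when 1 library was left out. The count of members past the threshold was 0 in each of these edgeR, limma-voom and DESeq2 fits, except DESeq2 with APP/PS1 replicate 3 left out, an alternative added after seeing the data, which called 2. Over all genes tested the count was 1, against 24 with DESeq2, 2 with the replicate block, 63 with DESeq2 with APP/PS1 replicate 3 left out, and 0 to 6 when 1 library was left out. The count of 0 came without WT replicate 1 and without WT replicate 2, where edgeR listed 371 and 345 genes at an unadjusted p under 0.05.

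The log2 fold change kept its sign in every alternative for 21 of the 39 members. With the replicate block it turned to 0.60 for Fosb, 0.02 for Nr4a3, -0.13 for Nfil3, -0.42 for Ier2, 0.01 for Homer1, 0.36 for Nptx2, 0.33 for Inhba, -0.30 for Dusp5, 0.11 for Plk2 and -0.01 for Gadd45g. APP/PS1 replicate 3 and WT replicate 4 share their number with no other library. The genotype difference of the block fit therefore came from replicates 1 and 2 of each genotype. The labels do not pair the animals, and deviations from the group means correlated at 0.0882 between APP/PS1 replicate 1 and WT replicate 1 and at -0.0441 between APP/PS1 replicate 2 and WT replicate 2. Pairs of libraries with unlike numbers correlated at -0.0814 to 0.067. Under this block 12 members had an edgeR p under 0.05 before adjustment, where 745 of all 18060 genes tested did, and 0 members passed. Replicates 1 and 2 were also the only libraries that measured the spread in the block fit. DESeq2 with APP/PS1 replicate 3 left out gave 0.15 for Fosb, 0.05 for Nr4a3, -0.01 for Nfil3, -0.35 for Ier2, 0.19 for Nptx2, 0.26 for Inhba, -0.22 for Dusp5, 0.07 for Plk2, 0.02 for Rgs2 and -0.02 for Gadd45g. Klf2 stood at 0.00 with a minimum mean count of 40 and at 0.01 with limma-voom, and Ptgs2 stood at -0.02 with limma-voom. When 1 library was left out, the values ran from -0.33 to 0.31 for Fosb, -0.07 to 0.16 for Jun, -0.33 to 0.05 for Nr4a3, -0.10 to 0.10 for Klf2, -0.01 to 0.27 for Nfil3, -0.01 to 0.17 for Crem, -0.35 to 0.36 for Ier2, -0.39 to 0.19 for Nptx2, -0.22 to 0.26 for Inhba and -0.22 to 0.33 for Ptgs2. They ran from -0.49 to 0.17 for Dusp1, -0.22 to 0.57 for Dusp5, -0.21 to 0.03 for Trib1, -0.33 to 0.07 for Plk2, -0.18 to 0.03 for Plk3, -0.42 to 0.02 for Rgs2 and -0.02 to 0.13 for Gadd45g. The cause of these changes was not tested.

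Each genotype has 3 libraries, and the median SE of the members' log2 fold changes was 0.20, or 0.14 without APP/PS1 replicate 3. With all 6 libraries the SE ran from 0.12 for Btg2 to 0.40 for Fosb, so the median is not a limit that holds for each member. A difference about as large as a member's own SE, or smaller, cannot be told from the spread between libraries. Larger ones among the members did not pass edgeR's test either. Egr4, at -0.69 (SE 0.26) with all 6 libraries, had an edgeR adjusted p of 0.887. The count of activity-regulated miRNAs past the threshold was 0 in each alternative run, and the deviation of the median member in APP/PS1 replicate 3 was -0.60 with prior counts of 0.5, 2 and 5. The depth in fragments is uncertain, and counting error adds most to Atf3 and Maff.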
